A study of Homo sapiens with 2 samples.

Results

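The 6 human IRX (Iroquois homeobox) genes were examined for CpG methylation in HEK293T cells, an established line of human embryonic kidney origin. They were taken by name from a set of 20163 annotated protein-coding genes. IRX4, IRX2 and IRX1 lie together on chromosome 5, and IRX3, IRX5 and IRX6 lie together on chromosome 16. For each gene, the promoter (1 kb on either side of the gene start), the body and a flank of 5 kb on each side were measured at the CpGs that had at least 1 read in both libraries.

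The data were whole genome bisulfite sequencing (WGBS), in which unmethylated cytosines are converted and read as T while methylated cytosines are read as C. There were 2 libraries with 1 library in each group. The library titled as negative (Neg) was the control, and dCas9+3A+HOXA5 (called the edited library here) came from cells given a nuclease-dead Cas9 bearing SunTag, DNMT3A brought to it through an antibody fragment, and a guide RNA to the first exon of HOXA5. The labels of both libraries give the same text on infection with the dCas9-SunTag-DNMT3A system for 30 days and sorting of fluorescent cells, so the titles were the only source of the groups, and neither library has a labelled clone, passage or replicate. No IRX gene was a stated target of the guide, and the libraries were compared here to see what the levels at these genes were with and without the editing system.

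IRX proteins are transcription factors of the TALE class of homeodomain proteins, which also holds the MEIS, PKNOX and TGIF families. They act in the patterning of the heart, nervous system, limb, kidney and lung, and their genes sit in 2 paralogous clusters, each spread over a long stretch with few other coding genes. Promoters rich in CpGs are unmethylated in most cells, and developmental regulators of this kind often lie in broad unmethylated domains that may become methylated in cultured or transformed cells.

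The promoter CpGs of the chromosome 5 cluster show where the methylation was read. The gene record of IRX4 starts at a methylated window, whereas its MANE Select transcript (the representative transcript agreed between annotation projects) starts further into the gene at a window that was hardly methylated. The windows below are the 250 bases just before these starts and before the start of IRX1. They are on hg19, 5′ to 3′ on the strand of the gene, and capitals mark the CpGs that had a read in both libraries. The first is at chr5:1887351-1887600 on the minus strand, the second at chr5:1883040-1883289 on the minus strand, and the third at chr5:3595696-3595945 on the plus strand.
IRX4 gene record start: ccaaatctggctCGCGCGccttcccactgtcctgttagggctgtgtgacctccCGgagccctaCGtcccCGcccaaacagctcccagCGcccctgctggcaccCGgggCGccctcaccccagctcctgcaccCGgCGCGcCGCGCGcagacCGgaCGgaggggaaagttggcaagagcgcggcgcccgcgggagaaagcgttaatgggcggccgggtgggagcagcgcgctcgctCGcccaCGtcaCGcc
IRX4 MANE Select start: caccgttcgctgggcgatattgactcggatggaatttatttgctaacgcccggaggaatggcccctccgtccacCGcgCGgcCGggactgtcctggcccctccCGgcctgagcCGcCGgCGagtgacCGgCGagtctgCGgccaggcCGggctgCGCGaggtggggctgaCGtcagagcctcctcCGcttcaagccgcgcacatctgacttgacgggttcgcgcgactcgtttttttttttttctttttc
IRX1 start: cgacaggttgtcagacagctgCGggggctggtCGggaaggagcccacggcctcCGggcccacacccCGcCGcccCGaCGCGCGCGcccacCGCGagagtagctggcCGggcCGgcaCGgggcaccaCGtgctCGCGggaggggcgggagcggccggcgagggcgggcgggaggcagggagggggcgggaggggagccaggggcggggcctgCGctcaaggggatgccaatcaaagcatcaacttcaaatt

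In the first window 20 of 31 CpGs were covered, and their mean methylation level was 78.6% in Neg and 43.8% in the edited library. Neg had 74 methylated reads among 96 (95% Wilson interval 67.7 to 84.4%) against 47 of 95 in the edited library (39.6 to 59.4%). These intervals did not overlap. Like all intervals given here they cover counting error only, since reads can be PCR copies and neighbouring CpGs share fragments. Reads are summed over CpGs here and throughout, so a read that crosses several CpGs counts once at each. Fisher's exact test, used below, treats these counts as independent, so its p-values are too small. The window also overlaps an exon of the long noncoding RNA gene CTD-2194D22.4.

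In the second window 15 of 30 CpGs were covered, and the mean was 6.67% in both libraries, with 1 methylated read of 28 in Neg and 2 of 37 in the edited library. In the third window 19 of 29 CpGs were covered, and the mean was 70.7% in Neg and 88.1% in the edited library. There 61 of 87 reads were methylated in Neg (59.8 to 78.7%) and 59 of 69 in the edited library (75.3 to 91.9%), and these intervals overlapped. The 250 bases before IRX2 hold 27 CpGs, none of which had a read in both libraries, so its start itself could not be read.

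The libraries differed in depth and in their general level. Neg held 89774283 reads over CpGs (mean 3.80 and median 3 per CpG) and the edited library held 46703423 (mean 2.89 and median 2), and 14699127 CpGs had a read in both. The mean level over those CpGs was 63.7% in Neg and 69.5% in the edited library, a difference of 5.81 points (edited library minus Neg here and throughout). That difference was 7.26 points on chromosome 5 and 3.10 points on chromosome 16. The HOXA5 promoter, here the 1 kb on either side of the start of the targeted gene, was at 1.87% in Neg and 41.2% in the edited library, which matched the titles.

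Placed at the gene record start, the IRX promoters were more methylated on chromosome 5 than on chromosome 16, in both libraries. The split was less clear at its edge. IRX6, the highest on chromosome 16, was at 23.1% in Neg, and the IRX4 promoter at its MANE Select start was at 36.3% in Neg and 35.0% in the edited library. At IRX2 the level came almost wholly from CpGs away from the start, since the 500-bp tile across it had 1 of 74 CpGs covered. A promoter was called different if its mean level differed by more than 20 percentage points and Fisher's exact test on the summed methylated and other reads gave an adjusted p (Benjamini-Hochberg, over the promoters of all protein-coding genes) under 0.01. By this rule 0 of the 6 IRX promoters were called, while of 18577 tested promoters 303 (1.63%) were called higher and 99 (0.533%) lower. Among promoters at 20 to 80% in Neg, as IRX4, IRX2, IRX1 and IRX6 were, 3.61% were called higher and 1.42% lower, and among those under 20%, as IRX3 and IRX5 were, 0.891% were called higher. At an unadjusted p under 0.05, Fisher's exact test gave 0 IRX promoters with a higher and 3 with a lower share of methylated reads in the edited library. Of all promoters 18.4% passed that limit with a higher and 8.8% with a lower share. With 1 library in each group the test compares these libraries, not the conditions, and no replicate error exists.

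**Figure D1:**
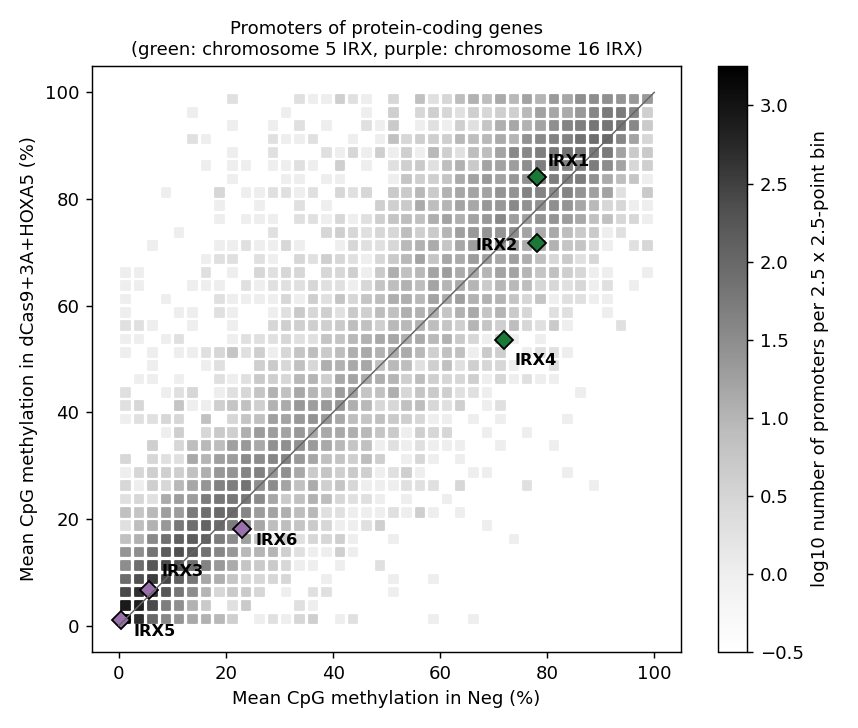
Mean CpG methylation of each protein-coding promoter in Neg (horizontal axis, %) and in dCas9+3A+HOXA5 (vertical axis, %), with grey squares for the number of promoters and diamonds for the IRX promoters (green for chromosome 5, purple for chromosome 16). IRX5 and IRX3 sit near the lower left corner, IRX6 lies at 23.1% in Neg, and IRX4 is the IRX promoter furthest below the line of equal levels.

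IRX4, a factor known from the ventricles of the heart, had the largest promoter difference of the 6 genes when promoters were placed at the gene record start. Its gene record spans chromosome 5, 1877527 to 1887350, on the minus strand. The promoter level was 71.9% in Neg and 53.6% in the edited library, a difference of -18.3 points over 134 of 180 CpGs, under the 20-point limit for a call. Methylated reads were 329 of 448 in Neg (73.4%, interval 69.2 to 77.3%) and 225 of 420 in the edited library (53.6%, 48.8 to 58.3%; adjusted p = 9.11e-08, Fisher's exact test). With the promoter narrowed to 500 bp on either side the difference was -27.9 points and passed the call. At that size 125 of 17414 tested promoters were called lower and 259 higher. Of the covered CpGs 69 were lower in the edited library, 29 were higher and 36 were equal. The direction was opposite to that of the genome, where the median promoter differed by 1.35 points, although 6585 of 18577 tested promoters were lower. Among promoters at 20 to 80% in Neg the quartiles of the difference were -2.75 and 11.6 points.

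The difference at IRX4 was smaller around the MANE Select start, and its interval included 0. Around that start, at 1883039, the promoter was at 36.3% in Neg and 35.0% in the edited library, a difference of -1.24 points over 98 CpGs (adjusted p = 0.201, Fisher's exact test). The read shares there differed by -8.05 points (interval -16.1 to 0.083).

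IRX2, a paralog studied in heart and limb, lies at 2745959 to 2751791 on the minus strand. Its promoter was at 78.0% in Neg and 71.7% in the edited library, a difference of -6.30 points (adjusted p = 0.372, Fisher's exact test). Only 81 of 250 promoter CpGs were covered, and the share of methylated reads moved the other way, from 74.2% to 79.6% (difference 5.42 points, interval -1.80 to 12.6). The direction at IRX2 therefore depended on whether CpGs or reads were given equal weight.

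IRX1, which acts in lung and digit development, lies at 3595946 to 3601517 on the plus strand. Its promoter was at 78.1% in Neg and 84.2% in the edited library over 123 of 240 CpGs, a difference of 6.13 points. The methylated reads were 363 of 446 and 325 of 395, which differed by 0.888 points (interval -4.38 to 6.08; adjusted p = 0.957, Fisher's exact test). IRX1 was the one chromosome 5 promoter with a higher mean in the edited library, and its read shares were not told apart at this depth.

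With promoters placed at the gene record start, those of the chromosome 16 cluster were lower than those of chromosome 5 in both libraries. The 500-bp tile that holds the MANE Select start of IRX4 was nevertheless at 3.70% in both libraries, so a low start was not limited to chromosome 16. IRX3, a regulator of neural patterning and of energy balance, lies at 54317216 to 54320699 on the minus strand, with a promoter level of 5.53% in Neg and 6.68% in the edited library (136 of 195 CpGs). Its methylated reads were 31 of 271 in Neg (11.4%) and 15 of 366 in the edited library (4.10%; adjusted p = 0.00636, Fisher's exact test). The 2 ways of averaging again gave opposite signs, 1.15 points over CpGs and -7.34 points over reads (interval -12.0 to -3.20). Of the covered CpGs 8 were higher in the edited library, 6 were lower and 122 were equal. The tile at the upstream edge of this promoter was highly methylated in both libraries (66 of 79 reads in Neg and 56 of 64 in the edited library). Next to it, nearer the start, a tile went from 1.72% to 13.8% (1 of 70 and 7 of 56 reads; adjusted p = 0.203, Fisher's exact test). The tiles over and after the start had 1 of 51, 1 of 63 and 3 of 116 methylated reads in Neg. In the edited library they had 3 of 57, 0 of 166 and 3 of 168. The part of read placement in the promoter's read share was not tested.

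IRX5, a partner of IRX3 in heart and bone development, lies at 54964777 to 54968397 on the plus strand and had the least methylated promoter of the family. Its level was 0.370% in Neg and 1.11% in the edited library over 90 of 188 CpGs. With 1 methylated read of 204 and 4 of 267, the difference in read share was 1.01 points (interval -1.41 to 3.33; adjusted p = 0.672, Fisher's exact test). The read share at the HOXA5 promoter differed by 32.6 points (interval 28.0 to 37.1). With the IRX5 promoter widened to 2 kb on either side, its mean difference was 6.04 points (adjusted p = 1.53e-06, Fisher's exact test), still not called.

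IRX6, known from the retina, lies at 55358115 to 55364668 on the plus strand. Its promoter was at 23.1% in Neg and 18.1% in the edited library (111 of 144 CpGs), a difference of -4.97 points. The methylated reads were 112 of 383 in Neg (29.2%, interval 24.9 to 34.0%) and 38 of 283 in the edited library (13.4%, 9.94 to 17.9%; adjusted p = 3.37e-05, Fisher's exact test). The IRX3, IRX6 and IRX4 promoters were thus the 3 with adjusted p under 0.01, each with a lower share of methylated reads in the edited library. All had a mean difference under 20 points, and at IRX3 the mean over CpGs was higher in the edited library by 1.15 points. Of all promoters 3.03% had such an adjusted p with a lower share and 6.71% with a higher share. IRX3 and IRX6 lost it at CpGs with at least 3 reads (adjusted p = 0.782 and 0.846, Fisher's exact test) and with CpGs at least 200 bp apart (0.937 and 0.422), where IRX6 differed by -13.9 points. IRX3 also lost it with the promoter at 500 bp on either side (0.983), and IRX6 with 2 kb on either side (-2.02 points, 0.0278). IRX4 lost it with CpGs at least 200 bp apart (0.859), at CpGs with at least 5 reads (0.526) and at the MANE Select start (0.201).

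In Neg the order of promoter means from high to low was IRX1, IRX2, IRX4, IRX6, IRX3 and IRX5. The Wilson interval of the IRX2 read share (68.5 to 79.2%) overlapped those of IRX1 and IRX4, and each of the other neighbours in the order had separate intervals. In the edited library the same order held, with IRX1 and IRX2 overlapping (78.2 to 85.7% and 74.4 to 84.0%), as did IRX3 and IRX5 (2.50 to 6.65% and 0.584 to 3.79%).

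**Figure D2:**
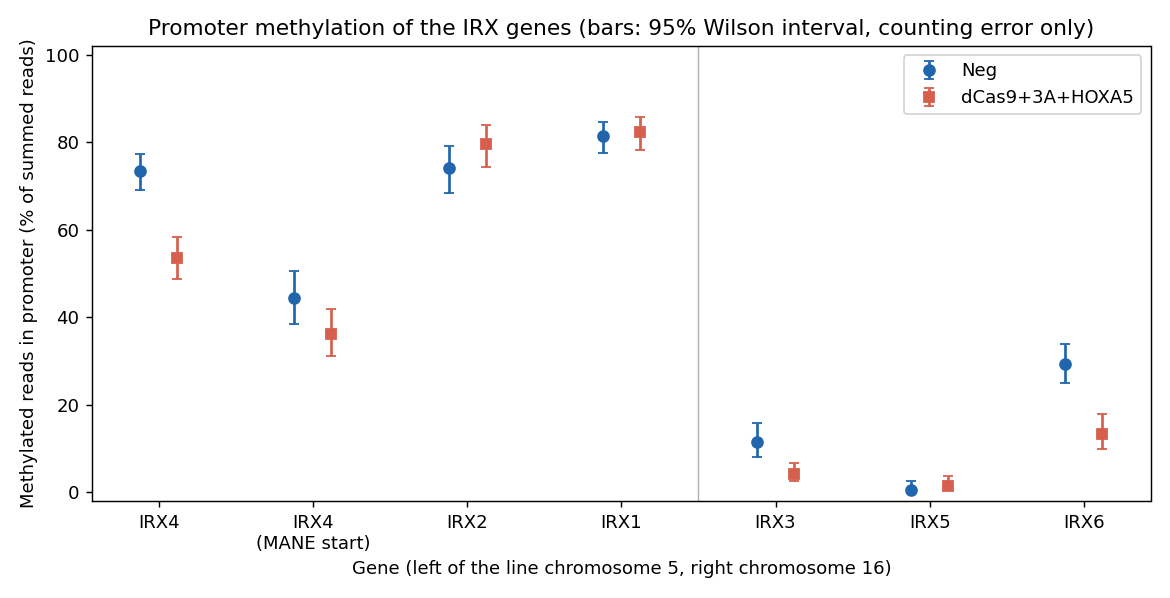
Share of promoter reads that were methylated (vertical axis, % of summed reads) for each IRX gene in Neg (blue circles) and dCas9+3A+HOXA5 (red squares), 1 library each, with 95% Wilson intervals that cover counting error only. The intervals of the libraries are apart at IRX4, IRX3 and IRX6 and overlap at IRX2, IRX1, IRX5 and the MANE Select start of IRX4.

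The bodies and flanks were mostly methylated, and none of these 18 regions was called (bodies of all genes: 2.01% higher and 0.252% lower; upstream flanks: 2.16% and 0.237%; downstream flanks: 2.31% and 0.296%). At an unadjusted p under 0.05, Fisher's exact test gave 6 of the 18 with a lower and 0 with a higher share of methylated reads in the edited library. Among the bodies and flanks of all genes, 7.15% passed with a lower and 34.5% with a higher share. Over all genes the median difference was 3.68 points for bodies, 4.20 points for upstream flanks and 4.17 points for downstream flanks. By the mean over CpGs, 11 of the 18 IRX regions were higher in the edited library and 7 were lower.

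IRX4 was lower in each of its regions. These are not separate, since a promoter covers the first 1 kb of the body and the nearest 1 kb of the upstream flank. Its upstream flank was at 79.0% in Neg and 63.7% in the edited library (difference -15.3 points, adjusted p = 0.00287, Fisher's exact test), and its downstream flank at 78.6% and 71.8%. Its body was at 73.7% and 70.2%, where the methylated read share differed by -9.66 points (interval -13.0 to -6.35). Of the covered body CpGs, however, 94 were higher in the edited library, 86 were lower and 275 were equal. With CpGs at least 200 bp apart, the body differed by 3.18 points and the upstream flank by 4.28 points, both higher in the edited library. The promoter then differed by -18.5 points over 8 CpGs (adjusted p = 0.859, Fisher's exact test).

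At IRX1 the body was at 70.3% in Neg and 62.1% in the edited library (difference -8.18 points, adjusted p = 0.0273, Fisher's exact test). That direction turned to 8.45 points at CpGs with at least 5 reads. Its upstream flank was at 57.7% and 66.9%, but the methylated reads there differed by only 0.426 points (interval -4.55 to 5.39). At IRX2 the body was at 75.3% and 75.6%, its upstream flank at 58.7% and 52.9%, and its downstream flank at 55.5% and 60.6%.

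On chromosome 16 the IRX5 upstream flank, at 0.977% in Neg and 2.76% in the edited library, was the one flank of the family at promoter-like levels. The downstream flanks were the most methylated regions of the cluster, at 91.6% and 94.8% for IRX3, 95.8% and 95.9% for IRX5, and 90.8% and 90.3% for IRX6. The IRX3 body was at 38.4% and 39.8%, yet its share of methylated reads was 48.1% and 33.7%. That difference of -14.4 points (interval -20.5 to -8.21) came with 141 of 168 CpGs equal, 15 higher and 12 lower in the edited library. Reads also fell differently along the body. In 2 tiles near the start, both under 20%, they numbered 116 and 63 in Neg against 168 and 166 in the edited library. The part of this in the read share was not tested. The IRX5 body was at 64.4% and 70.8%, and the IRX6 body at 57.8% and 61.6%.

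**Figure D3:**
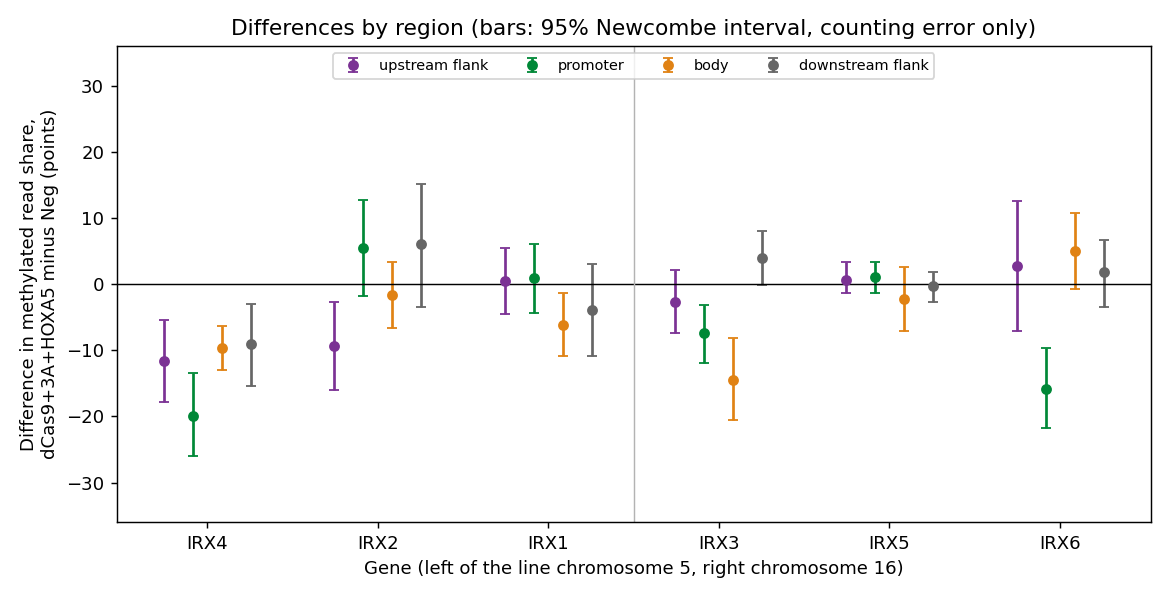
Difference in the share of methylated reads (vertical axis, percentage points, dCas9+3A+HOXA5 minus Neg) for the upstream flank, promoter, body and downstream flank of each IRX gene, with 95% Newcombe intervals that cover counting error only. All points of IRX4 and their bars lie below 0, the 4 bars of IRX5 include 0, and the lowest point is the IRX4 promoter at -19.9. The promoter of a gene overlaps its body and its upstream flank.

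Summed over each cluster, the chromosome 5 loci (body and flanks, 1675 CpGs) were at 68.4% in Neg and 65.7% in the edited library, and the chromosome 16 loci (1334 CpGs) at 60.9% and 63.0%. Over reads the difference was -6.37 points on chromosome 5 (interval -8.17 to -4.57) and -0.730 points on chromosome 16 (interval -2.77 to 1.30). The difference between the clusters was 5.64 points (interval 2.92 to 8.35). These intervals treat the reads of neighbouring CpGs as independent and are therefore too narrow. The chromosome 5 mean difference turned to 1.04 points, and that of chromosome 16 was 4.24 points, with CpGs at least 200 bp apart. The CpGs of the chromosome 5 loci were lower by 2.69 points on average, whereas chromosome 5 as a whole was higher by 7.26 points, and that contrast was not tested. Depth moved with place too: the reads in the edited library were 0.822 times those in Neg at the chromosome 5 loci and 0.877 times at the chromosome 16 loci, against 0.701 times over the genome, and the part of depth in the result was not tested.

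Of the cluster on chromosome 5, IRX4 carried the largest difference. Over its locus the share of methylated reads was 78.1% in Neg and 68.1% in the edited library (difference -9.98 points, interval -12.6 to -7.35). The corresponding difference was -2.17 points at IRX2 (interval -6.02 to 1.66) and -3.53 points at IRX1 (interval -6.65 to -0.403). By the mean over CpGs the IRX1 locus was at 61.5% and 62.0%, with 159 CpGs higher and 145 lower, so its direction depended on the weighting.

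Within each locus, tiles of 500 bp with at least 5 covered CpGs gave a finer view. Of 144 such tiles at the 6 genes, 0 were called by the same rule with Benjamini-Hochberg adjustment over 1030139 tiles of the genome, of which 1.05% were called higher and 0.397% lower. At an unadjusted p under 0.05, Fisher's exact test gave 7 tiles with a higher and 17 with a lower share of methylated reads in the edited library, where 11.4% of the genome's tiles passed higher and 4.48% lower. On chromosome 5 these were 2 higher and 12 lower of 84, and on chromosome 16 they were 5 and 5 of 60.

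The tiles with a mean over 20 points lower in the edited library were 11 in number, all on chromosome 5, and 7 of them were at IRX4. Another 6 were over 20 points higher, 2 on chromosome 5 and 4 on chromosome 16. Over the genome 6.79% of tiles were lower and 15.2% higher by that much. The tiles named from here on were chosen after their values were seen. The tile across the IRX4 gene start went from 71.9% to 47.2% over 64 CpGs (151 of 215 reads and 116 of 212; adjusted p = 0.0329, Fisher's exact test). The next tile upstream went from 81.9% to 55.0% over 20 CpGs (72 of 89 reads and 35 of 64; adjusted p = 0.0252, Fisher's exact test). In the first part of the gene, an intron tile at 0.600 kb was at 58.0% and 47.8% over 37 CpGs (84 of 121 reads and 40 of 110; adjusted p = 0.000134, Fisher's exact test). Lower levels thus held over neighbouring tiles at the IRX4 start, where either the size or the adjusted p missed the limits for a call.

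Upstream of IRX2, a tile centred at -1.46 kb (negative positions lie before the start) was at 41.1% in Neg and 9.65% in the edited library over 19 CpGs (25 of 59 reads and 5 of 46; adjusted p = 0.0189, Fisher's exact test). The adjacent tiles further upstream were at or under 6.25% in both libraries, so tiles under 20% extended 1 tile nearer to IRX2 in the edited library. Upstream of IRX1, a tile at -4.70 kb was at 3.46% in Neg and 35.9% in the edited library over 13 CpGs. It rests on 2 of 33 and 10 of 36 methylated reads (adjusted p = 0.220, Fisher's exact test), and was the highest gain among the 24 IRX tiles under 20% in Neg, whose median difference was 0.0 points. Of all genome tiles under 20% in Neg, 3.16% were called higher.

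On chromosome 16, the tile across the IRX6 start, which holds part of the 5′ UTR, was at 14.5% in Neg and 1.18% in the edited library over 34 CpGs (21 of 119 reads and 2 of 120; adjusted p = 0.00181, Fisher's exact test). The tile after it had means of 21.9% and 23.6%, while its methylated reads went from 29 of 93 to 13 of 75, so CpG means and read shares differed in direction there. Further into IRX6, 3 tiles had a mean over 20 points higher in the edited library, and 0 IRX6 tiles were lower by that much. The largest of these gains was 48.9 points over 5 CpGs (15 of 20 reads and 7 of 7; adjusted p = 0.714, Fisher's exact test). By read share at an unadjusted p under 0.05 (Fisher's exact test), 1 IRX6 tile was higher and 4 were lower. At IRX5 a coding-exon tile 1.47 kb into the gene was at 61.6% and 81.7% over 41 CpGs (113 of 161 reads and 185 of 221; adjusted p = 0.0593, Fisher's exact test). It lies at the edge of the low stretch that covers the IRX5 start. At IRX3 a tile at -2.55 kb was at 73.1% and 60.9% (97 of 118 reads and 31 of 58; adjusted p = 0.00809, Fisher's exact test).

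**Figure D4:**
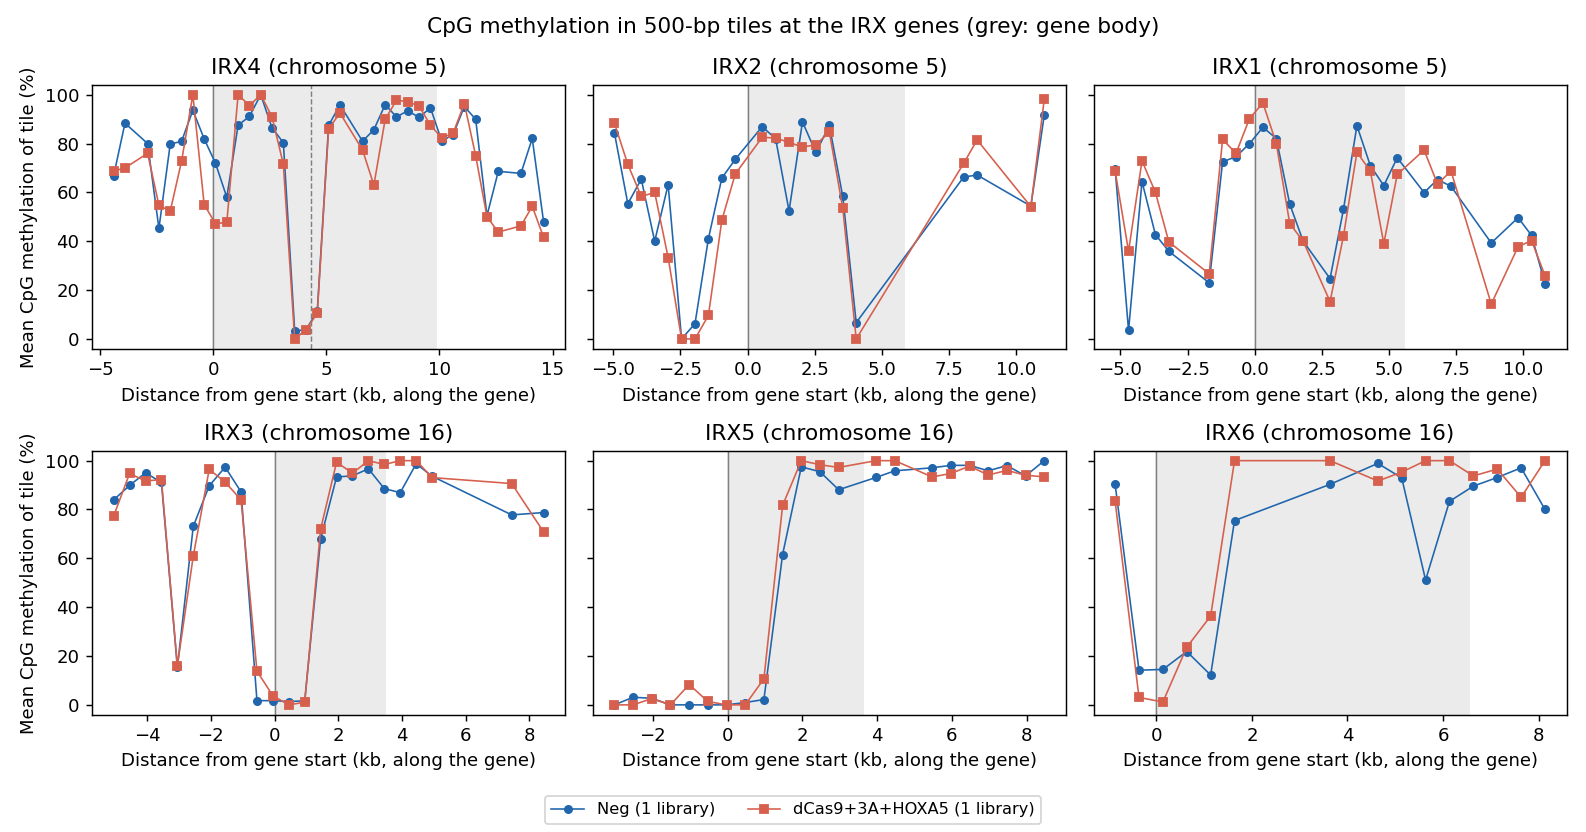
Mean CpG methylation of 500-bp tiles with at least 5 covered CpGs (vertical axis, %) against distance from the gene start in kb along the gene, for Neg (blue circles) and dCas9+3A+HOXA5 (red squares), with the gene body in grey, the gene start as a solid line and the MANE Select start of IRX4 dashed. IRX3, IRX5 and IRX6 have low tiles at the start in both libraries, IRX4 has its low tiles at the dashed line, and IRX1 has none at its start.

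The low stretch around each start, taken as the run of adjacent tiles under 20% with at least 3 covered CpGs, had the same ends in both libraries at this resolution wherever one was found, on CpGs that both libraries shared. At IRX5 it spanned 4.5 kb (54961501 to 54966000), at IRX3 2 kb (54319501 to 54321500) and at IRX6 1 kb (55357501 to 55358500). The upstream end at IRX5 was set by coverage, since the next tiles upstream had too few covered CpGs. Equal ends rest on the 20% limit and do not show equal levels. The upstream end tile at IRX3 went from 1.72% in Neg to 13.8% in the edited library, and the downstream end tile at IRX5 from 2.19% to 10.7%. At IRX6 the end tiles were lower in the edited library, from 14.2% to 3.04% and from 14.5% to 1.18%. At IRX4 it spanned 1.5 kb (1882501 to 1884000) around the MANE Select start. No tile in that IRX4 stretch exceeded 11.4% in Neg or 10.5% in the edited library. The start tiles of IRX1 and of the IRX4 gene record were not under 20%, and that of IRX2 had too few covered CpGs.

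The parts of the transcripts repeated this layout. In IRX3 the 5′ UTR was at 2.33% in Neg and 0.581% in the edited library and the coding sequence at 47.7% and 49.7%. By reads, that IRX3 coding sequence was lower in the edited library (137 of 214 and 93 of 197), and its introns likewise (54 of 112 and 49 of 126). By single CpGs, 9 were higher and 7 lower in that coding sequence, and 4 were higher and 2 lower in those introns. In IRX1, by contrast, the 5′ UTR was at 89.0% and 96.3% and the coding sequence at 78.9% and 69.1%. In IRX6 the 5′ UTR was at 20.1% and 13.7%, and the coding sequence at 86.6% and 92.0%. Coding levels were also high in IRX4 (90.6% and 92.4%), IRX2 (90.2% and 85.6%) and IRX5 (86.7% and 89.9%), although the IRX5 coding reads were lower in the edited library (326 of 364 and 266 of 317). The introns of IRX5 were at 43.4% and 57.3%, with 27 CpGs higher and 6 lower in the edited library, and those of IRX6 at 69.2% and 84.3%. Introns went the other way in IRX1 (58.3% and 47.3%, 22 CpGs higher and 34 lower) and in IRX4 (85.3% and 80.1%), and those of IRX2 were at 67.8% and 71.3% and those of IRX3 at 52.5% and 54.6%.

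Single CpGs can be read only where depth allows. At the 6 loci 177 CpGs had at least 5 reads in both libraries, and 14 of these were under 20% in Neg, of which 13 were also under 20% in the edited library. Of all 177, a gain of over 50 points was seen at 2 CpGs (1 at IRX4 and 1 at IRX1) and a loss of over 50 points at 5 (3 at IRX4 and 2 at IRX1). Among 1319472 CpGs of the genome at that depth, 71.3% of those under 20% in Neg were also under 20% in the edited library, 5.0% gained and 2.83% lost over 50 points. The shares at the IRX loci were 92.9%, 1.13% and 2.82%, and the differences were not tested. The CpGs this deep were 56 at IRX1, 34 at IRX4, 4 at IRX2, 38 at IRX5, 31 at IRX3 and 14 at IRX6, so IRX2 in particular was hardly sampled.

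The other TALE genes had promoters whose mean over CpGs was higher in the edited library in 9 of 11 tested, where 11755 of all 18577 were. Their median difference was 5.13 points against -2.11 points for the IRX promoters and 1.35 points for all promoters. The lowest mean difference among the other TALE genes was at PKNOX1 (-1.98 points), and read shares were not compared here. The promoters of the 6 DLX genes, homeobox regulators outside the TALE class, had a median difference of 0.353 points and a range from -10.8 points at DLX3 to 5.85 points at DLX1. These lists are small, and the differences between them were not tested.

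The nearest coding genes on each side were at varied distances. Beside the chromosome 5 cluster, the NDUFS6 promoter (a subunit of respiratory complex I) was at 1.31% in Neg and 4.91% in the edited library, and the ADAMTS16 promoter (a secreted metalloprotease) at 81.3% and 64.7% (323 of 384 and 247 of 371 reads; adjusted p = 1.15e-06, Fisher's exact test). NDUFS6 starts 76.0 kb from IRX4, whereas ADAMTS16 starts 1.54 Mb beyond IRX1. Beside the chromosome 16 cluster, MMP2 (a gelatinase) was at 77.9% and 84.0% (adjusted p = 0.589, Fisher's exact test), and FTO (a demethylase of RNA) had 4 covered CpGs and was not tested.

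The genes whose levels lay nearest to each member over 8 values (4 regions in 2 libraries, 18016 genes compared, Euclidean distance in percentage points) were THBS2 (9.99) and IFT122 (12.6) for IRX4, BANF2 (10.1) and KRT31 (11.8) for IRX2, and FAM3D (11.6) and TUBA3C (13.3) for IRX1. For the chromosome 16 genes they were USF1 (7.61) and DUSP12 (8.26) for IRX3, CDR2 (7.41) and SETD5 (9.71) for IRX5, and MED30 (8.84) and RWDD3 (9.52) for IRX6. These 8 values include both promoter levels, so likeness in them was built into the choice. Distances were smaller for the chromosome 16 genes than for those of chromosome 5.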

How the data were processed

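The authors trimmed and aligned WGBS reads to hg19 with BSMAP (2.90 in the submitters' processing notes) and computed CpG tables. Per the file headers, these deposited tables hold the methylation fraction, raw counts of C and of C or T reads, and an estimated count (the effective C or T depth, corrected for opposite-strand reads). How reads from copies such as the pseudogene IRX1P1 were placed was not given in those sources. The methods give 5 reads as the lowest CpG depth used. Here CpGs with at least 1 read in both libraries were joined, with 5 as an alternative, and gene positions were taken from GENCODE (hg19 coordinates). A region's level was the mean over CpGs of the deposited fraction, and regions with at least 5 CpGs were tested by the two-sided Fisher's exact test on summed counts, with Benjamini-Hochberg adjustment over all genes or tiles (Python 3.11.15, numpy 2.4.6, pandas 2.3.3, numba 0.67.0, scipy 1.17.1). The code was tested on simulated data. Named genes were the 6 members, list members called or at the extremes, neighbouring coding genes, the 2 nearest genes by level, and HOXA5. Since no IRX tile was called by the main rule, the tiles named were chosen after their values were seen. The result of 1 gene of the TALE list is not reported here. The members and lists were chosen with earlier results of these data known. The sequences come from GRCh37. The IRX1 window and at least 1 of the 2 IRX4 windows are also in the RefSeq promoter table (GRCh38.p14). Alternatives varied the read minimum, weighting, CpG filters and spacing, promoter and tile size, gene start and call rule.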

Additional observations from a re-analysis of the deposited data

How the results depend on the processing

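No paired analysis was possible because the groups hold 1 library apiece. The IRX4 promoter was lower in dCas9+3A+HOXA5 under all 10 alternatives (-27.9 to -1.24 points), with adjusted p from Fisher's exact test between 9.11e-08 and 0.859. With the promoter at 500 bp either side its -27.9 points were called, so 1 IRX promoter was called lower. Of all 17414 promoters tested at that size 125 were called lower and 259 higher. Under a rule of 10 points and adjusted p under 0.05, 1 IRX promoter was called lower, where 318 of 18577 promoters were. The IRX1 and IRX6 promoters kept their direction (0.888 to 11.2 and -15.8 to -2.02 points), with adjusted p for IRX6 from 2.80e-07 to 0.846. IRX5 ranged from 0 to 6.04 points, the latter with 2 kb either side (adjusted p = 1.53e-06, Fisher's exact test). IRX3 had an adjusted p of 0.983 at 500 bp either side. The IRX3 promoter turned to -4.16 points with at least 3 reads per CpG and to -7.34 by summed reads, and IRX2 to 5.42 by summed reads. IRX2, IRX3, IRX5 and IRX6 promoters had too few CpGs at 5 reads.

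Over all promoters, the calls higher and lower were 114 and 51 with at least 5 reads, 516 and 202 by summed reads, 10 and 0 with CpGs at least 200 bp apart, and 915 and 318 under the 10-point rule, while a 2 kb promoter gave 61 lower. Tiles called lower on chromosome 5 were 1 of 43 with at least 3 reads, 1 of 84 by summed reads and 5 of 84 under the 10-point rule. With 250 bp tiles they were 2 of 119, and with 1 kb tiles 2 of 50. On chromosome 16 they were 1 of 60 by summed reads and 2 of 60 under the 10-point rule, and 1 of 96 was called higher with 250 bp tiles. The share of the genome's tiles called at these settings is not given, so these counts have no background. The locus differences were -6.37 and -0.730 points (chromosomes 5 and 16) by summed reads, and 1.04 and 4.24 with CpGs 200 bp apart.

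Among bodies and flanks, 23 differences reversed. With at least 5 reads these were the bodies of IRX1 (8.45) and IRX3 (-0.89), the IRX1 upstream flank (-0.14) and the downstream flanks of IRX5 (-1.92) and IRX6 (8.26). With at least 3 reads they were the upstream flanks of IRX3 (-0.031) and IRX6 (16.7) and the IRX5 downstream flank (-1.26). By summed reads they were the bodies of IRX2 (-1.65), IRX3 (-14.4) and IRX5 (-2.29), the upstream flanks of IRX3 (-2.66) and IRX6 (2.75), and the downstream flanks of IRX1 (-3.96), IRX5 (-0.325) and IRX6 (1.85). With CpGs 200 bp apart they were the bodies of IRX1 (8.47) and IRX4 (3.18), the upstream flanks of IRX1 (-5.04), IRX4 (4.28), IRX5 (-2.08) and IRX6 (14.8), and the IRX1 downstream flank (-6.89). The cause was not tested. Fewer CpGs and reads enter under higher minima and spacing. The median depth was 2 or 3 reads per CpG, and without replicates no difference can be assigned to the conditions.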
